A study of Mus musculus with 4 samples.

Results

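The motile cilium genes are the protein-coding genes of the deposited table whose symbol begins with Dnah, Dnai, Cfap, Tekt or Rsph followed by a number, together with Foxj1, provided that at least 1 library had a value above 0. They number 59 of the 35275 gene identifiers in the table: 30 Cfap genes, 15 Dnah genes, 8 Rsph genes, 5 Tekt genes and Foxj1. No gene is named Dnai in the annotation used for the symbols, where the intermediate chains that bear that name elsewhere are called Dnaic1 and Dnaic2. Selection was by name only, so that no measured difference entered it beyond a value above 0.

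A motile cilium is a beating hair built on doublet microtubules that surround a central pair. Dynein arms on the doublets make them slide, radial spokes carry signals from the central pair to the arms, and tektins and other proteins lie inside or along the doublet wall. In the lung such cilia belong to the multiciliated cells of the airways, where they clear mucus, and sperm flagella share most of the parts. Foxj1 is the transcription factor that switches on the genes of motile cilia, and factors of the RFX family, which bind a sequence called the X-box, act beside it.

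The samples are lung tumours of Balb/c mice, wild type (Nrf2 +/+) or knockout (Nrf2 -/-) for Nrf2, a transcription factor of the antioxidant response. All mice had received vinyl carbamate, a chemical that causes lung tumours, at 16 mg/kg in 2 or 4 doses, and the tumours were taken 40 to 44 weeks later. Each sample pools 3 to 4 tumours, and each genotype has 2 samples, from separate mice by the series design. The labels do not tie a number of doses, weeks or tumours to a sample, and give no source or construct for the null allele, which is named as a genotype of the animal and not of one cell type.

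Values are FPKM, the fragments counted for a gene per 1000 bases of its length and per M fragments of the library (1 M is 1e6). Whole reads could be recovered from them, and they imply totals of 21.66 M reads in wild type 1, 21.22 M in wild type 2, 17.98 M in knockout 1 and 16.89 M in knockout 2. Nfe2l2, which encodes Nrf2, read 96.3 and 87.9 FPKM in wild type 1 and 2 against 3.66 and 2.96 in knockout 1 and 2, a log2 fold change of -4.44 ± 0.13 (SE, adjusted p = 0.000378, limma). Alveolar type 2 markers had summed levels of 101647 to 116903 FPKM in the 4 libraries, and their tested members had a median log2 fold change of -0.02. Of 13147 genes tested by limma, 15 passed an adjusted p under 0.05. These p-values measure the spread between 4 samples, and an exact two-sided permutation test of 2 against 2 could not go below 0.33.

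No motile cilium gene passed the test between the genotypes. Most of the 59 were scarce: 40 had a mean under 1 FPKM, 13 lay between 1 and 5, and 6 at or above 5 (Cfap20, Cfap298, Cfap36, Cfap97, Rsph9 and Cfap43). The median of their mean levels was 0.450 FPKM, and the median gene had 106 reads over all 4 libraries, with a range of 1 to 3431. Summed over those 6 abundant genes, the reads were nearly level across the samples, at 132 to 139 per M reads. Single genes among them were not all level, since Cfap97 was lower in both knockout libraries. Of the 39 scarcer genes with enough reads to test, 22 had their lowest level in wild type 2 and 16 their highest in knockout 2. In RNA from whole tumours, fewer ciliated cells and less cilium RNA per cell cannot be told apart.

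**Figure D1:**
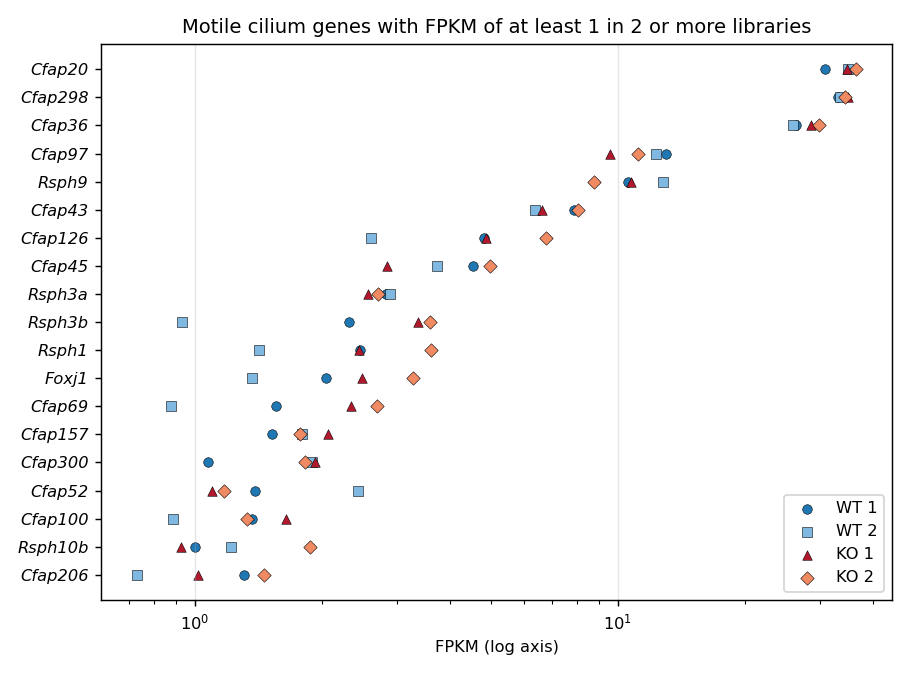
Level of each of the 19 motile cilium genes that reached 1 FPKM in 2 libraries or more, 1 point per library (horizontal axis, FPKM on a log scale). For Cfap20, Cfap298 and Cfap36 the 4 points nearly coincide, whereas for Rsph3b, Foxj1 and Cfap69 wild type 2 lies farthest to the left and both knockout libraries lie to the right of both wild-type ones.

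Levels of different genes depend on the length used. For 28 of the 59 the length behind the FPKM was the rounded mean over all annotated transcripts of the gene, short fragments included, and the longest transcript was 1.00 to 11.1 times the length used (median 1.62). Dnah14 marks the upper end, but it had 1 read and its length is the smallest that fitted, so its ratio could be too high. Per 1000 bases of the longest transcript and per M reads, Cfap298 led with a mean of 16.6, followed by Cfap36 at 14.5, Cfap20 at 10.6, Rsph9 at 7.54 and Cfap97 at 6.04. Cfap43 came to 1.33 on that scale, below Cfap126 at 3.00, Rsph3a at 2.70 and Foxj1 at 2.29, although its FPKM was higher than theirs. Cfap298, Cfap20 and Cfap43 have the smallest length that fitted. Their values on this scale could therefore be too low, and the order of the genes is not settled.

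Of the 59 genes, 19 reached 1 FPKM in 2 libraries or more and entered limma: 13 Cfap genes, 5 Rsph genes and Foxj1, with no Dnah and no Tekt gene. The count called was 0 of 19, against a background of 0.114% of all genes tested, and 3 had an unadjusted p under 0.05 (Cfap69, Rsph3b and Foxj1), against 15.4% of all genes. Adjusted p-values ran from 0.232 to 0.933. Among the 19, 14 fold changes were above 0 (49.2% over all genes) and 9 had groups without overlap. Both knockout libraries were above both wild-type ones for 6 (Cfap298, Cfap36, Cfap126, Cfap69, Rsph3b and Foxj1), where the background is 22.7%. Both were below for 3 (Cfap97, Cfap52 and Rsph3a), where the background is 25.4%. On the log2(FPKM + 1) scale the fold changes ran from -0.42 for Cfap52 to 0.82 for Rsph3b, with a median of 0.155, beside -0.004 over all genes tested. That scale understates the changes of scarce genes.

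Recovered reads bring more of the genes into reach, since 45 had at least 10 reads in 2 or more libraries: 23 Cfap, 11 Dnah, 6 Rsph and 4 Tekt genes and Foxj1. With limma-voom on those reads 0 of 45 were called, where the background is 0.0469% of 14929 genes. An unadjusted p under 0.05 was reached by 4 (Cfap161, Cfap69, Rsph3b and Foxj1; Cfap161 was named after its values were seen), against 15.5% of all genes. Groups lay apart for 10 genes on the higher side (background 23.8%) and for 6 on the lower side (background 23.9%). The higher share (10 of 45) is near that of all genes, and the lower share (6 of 45) is below it. The median log2 fold change was 0.12, beside 0.007 over all genes, with 28 genes above 0 and 17 below (51.2% of all genes were above 0).

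Foxj1 (ENSMUSG00000034227) lies on mouse chromosome 11 at 116330704 to 116335399, minus strand, in the GRCm38 assembly. Its level was 2.04 and 1.37 FPKM in wild type 1 and 2, on 116 and 76 reads, against 2.48 and 3.27 in knockout 1 and 2, on 117 and 145 reads. Both knockout values were above both wild-type values, with wild type 2 lowest. The log2 fold change was 0.52 ± 0.20 (adjusted p = 0.294, limma) and 0.76 ± 0.27 on reads (adjusted p = 0.260, limma-voom), so the difference did not pass. Leaving out wild type 2 took the limma value to 0.34, and leaving out wild type 1 to 0.705. Other regulators of ciliogenesis moved both ways. Of 19 listed genes, Foxj1 among them, 8 were tested by limma and 0 called, with 1 at an unadjusted p under 0.05 (2 by limma-voom, 0 called); 2 were higher in both knockout libraries, 3 lower, and the median log2 fold change was -0.03. On reads 13 were tested, with 5 higher and 4 lower (23.8% and 23.9% over all genes). Of the 11 below the FPKM filter, 8 were higher in both knockout libraries and 1 lower. No share over all genes below that filter was computed. Some of the 8 rest on very few reads, such as Cdc20b and Foxn4, with 0 in both wild-type libraries and 1 in each knockout library. That count is therefore not read as a result. Among the 8 was Myb, a factor of multiciliated precursors, with 12 and 8 reads in wild type and 18 and 19 in knockout (log2 fold change 1.18 ± 0.44, adjusted p = 0.280, limma-voom). Cdc20b, Foxn4 and Myb were named after their values were seen. Rfx3, which helps to switch on cilium genes, read 4.24, 3.22, 2.77 and 2.72 FPKM in wild type 1, wild type 2, knockout 1 and knockout 2 (log2 fold change -0.33 ± 0.16, adjusted p = 0.397, limma). Gmnc, which starts the multiciliated programme, had 0 reads in both wild-type libraries and 3 and 4 in knockout, and Mcidas, which acts just after it, had 3, 2, 6 and 1 reads in the same order; both were named after their values were seen, and neither had enough reads for a test.

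Promoters of the motile cilium genes were searched for the letters these factors bind. RefSeq's table for GRCm38.p6 gave 54 promoters for 47 of the 59 genes, each running from 250 bases before the gene's start to 50 after it. The RFX half-site GTTGCC, on either strand, was present in 20 of the 54 (37.0%, in 18 genes), and in 12.5% of all 32851 promoters of the table. The forkhead sequence GTAAACA, on either strand, was in 4 of the 54 (7.41%), and in 3.65% of all promoters. A full X-box (GTTNCC followed after 1 to 3 bases by GGNAAC, on either strand) was in 1 member promoter (1.85%), that of Cfap298, and in 0.776% of all promoters. An X-box of this form can hold 2 overlapping counts of the half-site. Cfap298, a dynein arm assembly factor, held a pair of X-boxes, shown because this was the member promoter with the full motif; the first begins 69 bases before the RefSeq start and the second 188 bases before it, and both stretches lie within the first exon of a longer GENCODE transcript. Each sequence is written 5′ to 3′ on the strand of its gene, with each match in capitals.
Cfap298 X-box 1, chr16:90934897-90934925, minus strand: tttgactGTTGCCCCTGGCAACagccact
Cfap298 X-box 2, chr16:90935017-90935044, minus strand: ggttttgGTTGCCCGGGCAACagctact

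Half-sites are shown for a gene of each of the doublet, tektin and dynein groups, and for Dnah7a and Dnah7c, near-identical copies among which reads may be split. In the first pair GGCAAC is the half-site on the opposite strand. The last line holds the forkhead sequence of Cfap20.
Cfap161, chr7:83794885-83794920, minus strand: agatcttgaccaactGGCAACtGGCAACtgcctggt
Tekt2, chr4:126325690-126325725, minus strand: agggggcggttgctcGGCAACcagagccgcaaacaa
Dnah10, chr5:124725050-124725084, plus strand: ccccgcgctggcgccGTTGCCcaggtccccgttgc
Dnah7a, chr1:53706964-53706999, minus strand: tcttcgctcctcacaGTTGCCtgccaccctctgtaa
Dnah7c, chr1:46425284-46425319, plus strand: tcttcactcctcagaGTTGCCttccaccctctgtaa
Cfap20, chr8:95435030-95435066, minus strand: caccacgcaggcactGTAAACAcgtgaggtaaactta

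The windows of Dnah7a and Dnah7c differ at 3 of 36 positions. Cfap298 and Cfap161, which both hold the half-site, had mean levels of 34.1 and 0.394 FPKM. A match of letters describes the promoter and says nothing of binding in these tumours.

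The dynein heavy chains, the motors of the arms, were all scarce, with means of 0.00936 to 0.503 FPKM over the 15 genes. Summed over the family they gave 645, 411, 349 and 527 reads in wild type 1, wild type 2, knockout 1 and knockout 2. Per M reads that is 29.8 (27.5 to 32.2, exact Poisson 95% interval, which covers counting error only) in wild type 1, 19.4 (17.5 to 21.3) in wild type 2, 19.4 (17.4 to 21.6) in knockout 1 and 31.2 (28.6 to 34.0) in knockout 2. One library of each genotype was thus high and one low, with intervals that did not meet between the high and low libraries. Several heavy chains, Dnah2, Dnah6 and Dnah12 among them, have the smallest length that fitted. The sums and intervals therefore rest in part on reads that could be undercounted. Of the 11 heavy chains with enough reads for limma-voom, 4 were above 0 and 7 below, with a median log2 fold change of -0.26, but after centring on transcript length 9 of the 11 were above 0 and the median was 0.17, so that no direction can be given for the family.

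Among heavy chains of the outer arms of airway cilia, Dnah9 read 0.453 and 0.319 FPKM in wild type against 0.234 and 0.332 in knockout, with overlapping groups. Dnah5, the other main outer-arm motor of the airway (named after its values were seen), had 66 and 25 reads in the wild-type and 12 and 44 in the knockout libraries, so that the spread within each genotype was wider than the difference between them (log2 fold change -0.53 ± 0.70, limma-voom). Heavy chains known from the outer arms of sperm flagella were Dnah8 and Dnah17. Dnah8 stood at 0.193 and 0.155 FPKM in wild type and at 0.198 and 0.568 in knockout, on 61, 48, 52 and 140 reads. Only knockout 2 stood apart, while knockout 1 was next to wild type 1, and the log2 fold change was 0.93 ± 0.51 (adjusted p = 0.436, limma-voom). Dnah17 went the other way, at 0.463 and 0.370 in wild type and 0.355 and 0.270 in knockout, with a log2 fold change of -0.41 ± 0.28 that became 0.02 after centring on transcript length.

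Inner-arm heavy chains differed among themselves. Dnah2 was level in all 4 libraries, at 0.503, 0.498, 0.544 and 0.465 FPKM. Dnah6 read 0.455 and 0.225 in wild type and 0.181 and 0.403 in knockout, with the higher value of each genotype in wild type 1 and knockout 2. Dnah12 read 0.308 and 0.157 in wild type and 0.242 and 0.516 in knockout, again with wild type 2 lowest and knockout 2 highest. Of the near-identical copies, Dnah7a had 13, 7, 8 and 3 reads, Dnah7b 9, 6, 6 and 14 and Dnah7c 10, 5, 1 and 8 (named after their values were seen), and how reads were shared between them is not given in the sources used here. Dnah14 had 1 read, in wild type 1. The intermediate chains of the outer arm, which are not members by name, had like levels: Dnaic1 read 0.906, 0.249, 0.504 and 0.938 FPKM, and Dnaic2 0.653, 0.462, 0.847 and 0.934. Wild type 2 was lowest for both.

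Radial spoke genes ranged from abundant to nearly absent. Rsph9, a spoke head protein, stood at 10.6 and 12.8 FPKM in wild type and at 10.7 and 8.79 in knockout, a log2 fold change of -0.24 ± 0.15 (adjusted p = 0.493, limma; -0.11 without knockout 2 or without wild type 2) with overlapping groups. The spoke head genes Rsph1 and Rsph4a had another order. Rsph1 read 2.46 and 1.42 in wild type and 2.44 and 3.61 in knockout (0.46 ± 0.24, adjusted p = 0.414, limma), and Rsph4a had 29 and 14 reads in wild type against 29 and 34 in knockout (0.92 ± 0.43, adjusted p = 0.368, limma-voom). In both, wild type 2 was lowest and knockout 2 highest. Wild type 1 and knockout 1 were nearly equal for Rsph1, whereas for Rsph4a, at 0.394, 0.194, 0.475 and 0.593 FPKM, both knockout libraries were above wild type 1. Rsph1 came to 0.20 without wild type 2, 0.25 without knockout 2 and 0.72 without wild type 1. Rsph10b, also of the spoke head, read 0.999 and 1.22 FPKM in wild type and 0.926 and 1.87 in knockout.

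Rsph3b, a copy of the spoke stalk gene, had the largest fold change of the 19 genes tested by limma. Its levels were 2.32 and 0.934 FPKM in wild type and 3.38 and 3.59 in knockout, on 81, 32, 98 and 98 reads. Both knockout values were above wild type 1, and wild type 2 was far below it. The log2 fold change of 0.82 ± 0.26 (adjusted p = 0.252, limma; 1.23 ± 0.39 on reads, adjusted p = 0.232, limma-voom) did not pass, and it was 0.435 without wild type 2. Rsph3a, its near-identical copy on the same chromosome, read 2.83 and 2.88 in wild type and 2.57 and 2.70 in knockout, a log2 fold change of -0.08 ± 0.14. Reads shared by the pair may have been split between them, so each value is uncertain. Rsph6a, the testis relative of Rsph4a, had 1 read, in wild type 2. Over the 6 Rsph genes with enough reads the median log2 fold change was 0.45 by limma-voom, with 4 above 0 and 2 below.

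Tektins, filament proteins of the doublet wall, were below the FPKM filter in every case. Tekt4 led at 0.904 and 0.554 FPKM in wild type and 0.654 and 1.12 in knockout. Tekt2 read 1.01 and 0.343 in wild type against 0.751 and 0.738 in knockout, and Tekt1 0.522 and 0.300 against 0.354 and 0.878. The groups overlapped for these 3 genes and for Tekt5, at 0.450, 0.551, 0.650 and 0.538. Tekt3 had 1 and 1 reads in wild type and 4 and 1 in knockout. All 4 tektins with enough reads had a log2 fold change above 0 by limma-voom, from 0.25 (Tekt5) to 0.47 (Tekt1), each smaller than its SE, and summed over the family the reads per M were 3.83, 2.50, 3.45 and 4.56 in wild type 1, wild type 2, knockout 1 and knockout 2.

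**Figure D2:**
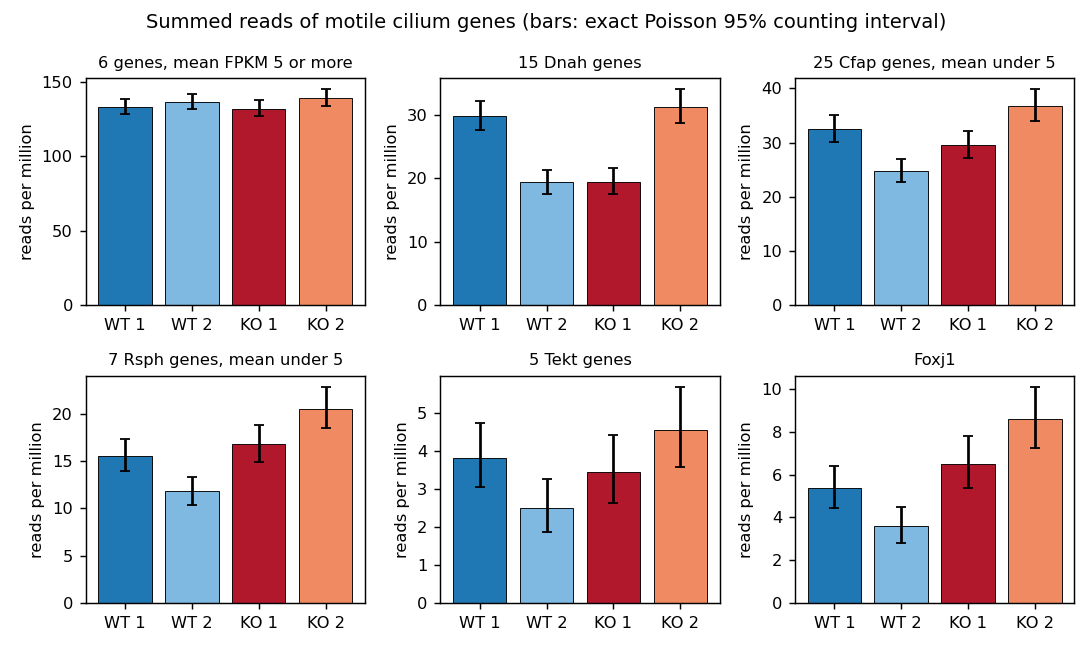
Summed reads of the motile cilium genes per M reads of the library (vertical axes from 0), 1 bar per library and 1 panel per group of genes, with exact Poisson 95% intervals that cover counting error only. Reads of genes given the smallest length that fitted could be undercounted. The 6 genes with a mean of at least 5 FPKM are nearly level at 132 to 139, whereas the other groups have wild type 2 lowest, with knockout 1 level with it for the Dnah genes, and knockout 2 highest.

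The Cfap genes hold the most abundant members, several of which also serve non-motile cilia or other tasks. Cfap20, a protein of the doublet microtubule, stood at 30.8 and 35.1 FPKM in wild type and 34.8 and 36.7 in knockout (log2 fold change 0.12 ± 0.11, adjusted p = 0.657, limma; 0.03 without wild type 1). Cfap298 read 33.2 and 33.4 against 35.1 and 34.4 (0.06 ± 0.10, adjusted p = 0.818), and a gene on the opposite strand overlaps its first exon, so that their reads cannot be told apart if counting ignored strand. Cfap36, a partner of the primary cilium protein Arl3, read 26.4 and 26.0 against 28.6 and 29.9 (0.16 ± 0.10, adjusted p = 0.505). In each of these 3 genes the 4 libraries lay within a narrow range, and the knockout values of Cfap298 and Cfap36 were just above the wild-type ones. Cfap97 stood at 12.96 and 12.3 in wild type and 9.56 and 11.2 in knockout, without overlap but short of the test (-0.26 ± 0.12, adjusted p = 0.385, limma; -0.16 without knockout 1). Summed reads of the 6 abundant genes, Rsph9 and Cfap43 included, were 133, 137, 132 and 139 per M in wild type 1, wild type 2, knockout 1 and knockout 2, with intervals that all overlapped.

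Cfap43, part of the tether of an inner dynein, read 7.88 and 6.36 FPKM in wild type and 6.60 and 8.05 in knockout, with a log2 fold change of 0.04 ± 0.16 whose sign changed when wild type 2 (-0.098) or knockout 2 (-0.090) was left out. Genes whose proteins lie inside the doublets did not move together. Cfap126 stood at 4.84 and 2.61 in wild type and 4.89 and 6.75 in knockout, where wild type 2 was low and the other wild-type library was close to knockout 1 (0.56 ± 0.26, adjusted p = 0.381, limma). Cfap45 read 4.53 and 3.73 against 2.84 and 4.98, with overlapping groups (-0.09 ± 0.23, adjusted p = 0.880, limma). Cfap52 was highest in wild type 2, at 1.39 and 2.43 in wild type and 1.10 and 1.17 in knockout (-0.42 ± 0.21, adjusted p = 0.408, limma), and went to -0.16 without wild type 2 and -0.68 without wild type 1. For Cfap126, by contrast, wild type 2 was lowest, and its value went to 0.21 without wild type 2, 0.36 without knockout 2 and 0.90 without wild type 1. Cfap161 had 9 and 3 reads in wild type and 18 and 16 in knockout, the largest fold change on reads of the 45 genes (1.89 ± 0.58, adjusted p = 0.224, limma-voom).

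Cfap69, a protein known from the sperm flagellum and olfactory cilia, had the smallest adjusted p of the 19 genes. It stood at 1.56 and 0.876 FPKM in wild type and 2.34 and 2.69 in knockout, on 49, 27, 61 and 66 reads. Both knockout libraries were above both wild-type ones, and the log2 fold change was 0.68 ± 0.20 (adjusted p = 0.232, limma; 1.09 ± 0.34 on reads, adjusted p = 0.228, limma-voom). The limma value of Cfap69 went to 0.456 without wild type 2 and to 0.903 without wild type 1. Among proteins of the central pair, both named after their values were seen, Cfap54 had 48 and 42 reads in wild type and 19 and 26 in knockout (-0.71 ± 0.34, adjusted p = 0.385, limma-voom), and Cfap74 had 26 and 11 in wild type and 22 and 26 in knockout (0.78 ± 0.48, adjusted p = 0.490, limma-voom). These lay on opposite sides of 0, and neither passed. Over the 23 Cfap genes with enough reads, 15 were above 0 and 8 below, with a median log2 fold change of 0.09 by limma-voom.

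Differences between single libraries were larger than those between the genotypes. Of the 45 genes with enough reads, 24 (53.3%) had their lowest level in wild type 2, where the share over all 14929 genes was 21.7%, and 19 (42.2%) had their highest in knockout 2, against 31.1% of all genes. Wild type 1 was highest for 15 (33.3%, against 26.8%) and lowest for 5 (11.1%, against 27.2%). The log2 level of the median gene, relative to that gene's mean over the 4 libraries, was 0.13 in wild type 1, -0.40 in wild type 2, -0.01 in knockout 1 and 0.16 in knockout 2. Split by level, the 39 scarcer genes had medians of 0.20, -0.46, -0.01 and 0.36 in that order, and the 6 abundant ones -0.02, 0.00, 0.02 and 0.06. Wild type 2 thus stood low for the scarce genes and not for the abundant ones. For the scarce genes wild type 1, of the same genotype, stood above knockout 1 as measured. With the median of all genes of like transcript length subtracted, the scarce genes had 0.12, -0.49, 0.05 and 0.37 in that order. Wild type 1 and knockout 1 then lay closer together. The SD of a gene over the 4 libraries had a median of 0.434 on the log2 scale for the 45 genes, 0.350 once each library's median over the 45 was subtracted, and 0.189 for all genes, which are on average deeper.

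**Figure D3:**
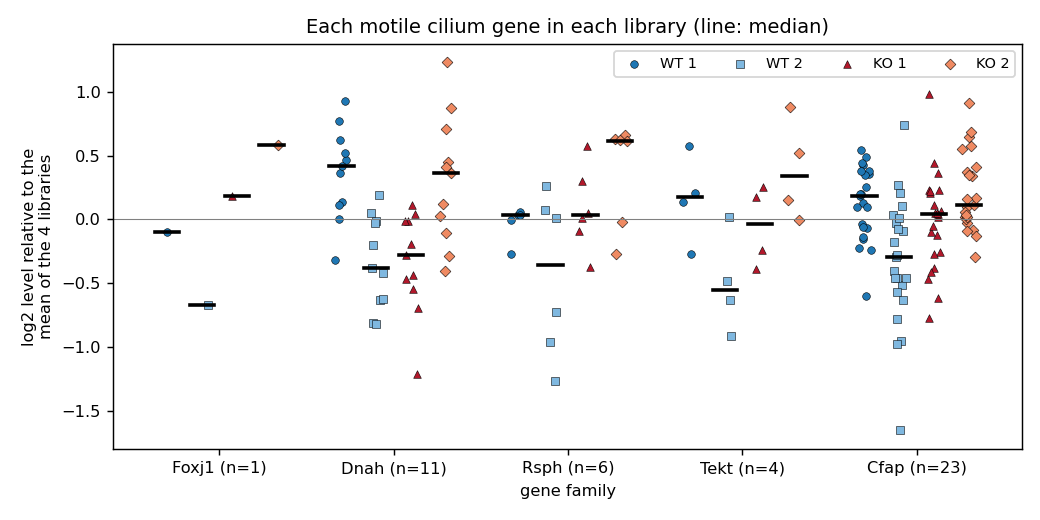
Log2 level of each of the 45 motile cilium genes with enough reads in each library, relative to the gene's mean over the 4 libraries (vertical axis), by gene family; black lines are medians over the genes of a family. In wild type 2 the line lies below 0 in every family, and in knockout 2 it lies above 0.

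Transcript length varied with the library as well. Among all genes with a longest transcript over 12000 bases (162 genes) the median level relative to the mean of the 4 libraries was 0.36 in wild type 1, 0.06 in wild type 2, -0.30 in knockout 1 and -0.13 in knockout 2, and among those of up to 1000 bases (917 genes) it was -0.24, 0.01, 0.19 and 0.08. Long transcripts were thus relatively frequent in wild type 1 and infrequent in knockout 1. The 11 dynein heavy chains with enough reads all have long transcripts, and their median levels were 0.42, -0.38, -0.28 and 0.36 as measured. With the median of all genes of the same length class subtracted they became 0.05, -0.45, 0.02 and 0.49, so that wild type 1 and knockout 1 came to lie together while wild type 2 stayed low and knockout 2 high. Foxj1, a shorter gene, hardly moved, from -0.10, -0.67, 0.19 and 0.58 to -0.07, -0.68, 0.19 and 0.55. After centring on length 0 of the 45 genes were called by limma-voom, and 33 were above 0 and 12 below. An unadjusted p under 0.05 was reached by 6, of which Cfap69, Cfap161, Dnah8, Foxj1 and Rsph3b were higher in knockout and Rsph9 lower (-0.51 ± 0.16). The matching shares over all genes were not computed for this fit, so these counts are not read as a result about the 45. Its median log2 fold change was 0.17 for the 45 and 0.002 for all genes. What set the length trend was not tested.

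**Figure D4:**
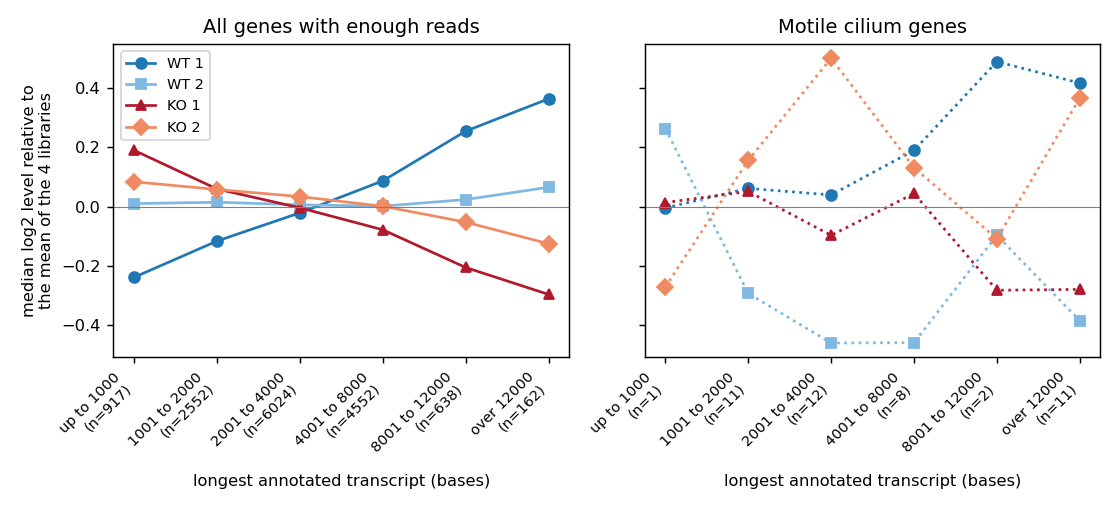
Median log2 level relative to the mean of the 4 libraries (vertical axis) by length of the longest annotated transcript (horizontal axis, bases, with the number of genes), for all genes with enough reads (left) and the motile cilium genes (right), 1 line per library. On the left wild type 1 climbs from -0.24 to 0.36 and knockout 1 falls from 0.19 to -0.30, and on the right wild type 2 lies below 0 in 5 of 6 classes, of which the shortest holds 1 gene.

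Genes of the same organelle outside the families showed a like order of libraries. The 7 lists (regulators, dynein assembly and docking, dynein light chains, nexin-dynein and ruler proteins, central pair, microtubule inner proteins, airway ciliated markers) add 84 genes in the table that are not members. Of these 38 were tested by limma and 0 called, with 2 at an unadjusted p under 0.05, and 68 by limma-voom with 0 called and 4 at an unadjusted p under 0.05. The median log2 fold change was 0.12 by limma, with 8 genes higher and 5 lower without overlap (22.7% and 25.4% over all genes). By limma-voom it was 0.25, with 48 of 68 above 0 (51.2% over all genes), and median levels by library were 0.03, -0.24, -0.04 and 0.29 in wild type 1, wild type 2, knockout 1 and knockout 2. Wild type 2 was lowest and knockout 2 highest within the light chain, nexin-dynein and ruler, microtubule inner and airway marker lists. Among these, wild type 1 lay above knockout 1 for nexin-dynein and ruler and for microtubule inner proteins. It lay below knockout 1 for the light chains and the airway markers. In the same library order the central pair, lowest in knockout 1, had 0.15, -0.30, -0.41 and 0.61. Dynein assembly and docking, highest in knockout 1, had -0.03, -0.05, 0.14 and 0.01. The regulators, Foxj1 included, were nearly level at -0.02, -0.02, 0.00 and 0.03.

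All 15 airway ciliated markers were above 0 in every library. Their 8 tested genes had a median log2 fold change of 0.29, and 6 were higher in both knockout libraries, where the share over all genes is 22.7%, with 0 called by limma and 2 at an unadjusted p under 0.05 (0 called and 3 of 13 by limma-voom). Sec14l3, a lipid-binding protein of ciliated cells, stood at 90.6 and 54.7 FPKM in wild type and 105 and 115 in knockout (0.64 ± 0.23, adjusted p = 0.282, limma). Tppp3, a microtubule-binding protein, read 22.2 and 12.9 against 30.7 and 31.8 (0.85 ± 0.23, adjusted p = 0.212, limma). In both, wild type 2 was lowest and both knockout libraries were above wild type 1. The next in abundance changed less, Dynlrb2 by 0.28 ± 0.15 (adjusted p = 0.434, limma) and Nme5 by 0.16 ± 0.14 (adjusted p = 0.614, limma). Groups overlapped for Fam183b and Tmem212, named after their values were seen, with knockout 1 below wild type 1. Fam183b read 3.05 and 1.24 FPKM in wild type and 1.57 and 4.13 in knockout, and Tmem212 2.19 and 1.51 against 1.32 and 4.30. The lists of structural parts had smaller medians by limma, at 0.04 for dynein assembly and docking (6 tested, 1 higher and 1 lower without overlap), 0.07 for dynein light chains (3 tested), 0.12 for nexin-dynein and ruler proteins (5 tested), 0.19 for the central pair (3 tested) and 0.13 for microtubule inner proteins (8 tested, 1 higher and 1 lower). Intraflagellar transport genes, which primary cilia use too, were all 23 tested. Their median was -0.16, with 3 higher and 12 lower without overlap (22.7% and 25.4% over all genes), 0 called by limma and 3 at an unadjusted p under 0.05, and the same 2 counts by limma-voom. Ift20, the most abundant of them, went against the list median, at 93.3 and 114 FPKM in wild type and 148 and 144 in knockout. The next in abundance, Ift46 and Ift81, were lower in both knockout libraries. Ift46 read 39.8 and 44.7 against 35.3 and 37.0, and Ift81 42.1 and 40.3 against 35.8 and 33.5. Ift52, with overlapping groups, read 27.7 and 31.0 against 28.1 and 27.4.

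Other cell types moved with the libraries in part of the same order. Club cell markers, of the cells that line the airways beside ciliated ones, had summed levels of 2246, 1112, 2874 and 3835 FPKM in wild type 1, wild type 2, knockout 1 and knockout 2, with 5 of 7 higher without overlap (22.7% over all genes), 0 called by limma, 4 at an unadjusted p under 0.05 (15.4% over all genes) and a median log2 fold change of 1.00. Scgb1a1, the secretory product of club cells, read 1709, 723, 1996 and 3099 FPKM. Endothelial markers summed to 119, 59.8, 100.4 and 166 FPKM (6 tested, 0 called, 2 at an unadjusted p under 0.05) and fibroblast markers to 331, 225, 324 and 530 (5 tested, 0 called, 1 at an unadjusted p under 0.05). Wild type 2 was lowest and knockout 2 highest in all 3 lists, as for the scarce motile cilium genes. Alveolar type 1 markers had a median of 0.07 (6 tested, 0 called, 2 at an unadjusted p under 0.05), goblet markers -0.51 (4 tested, 0 called, 3 at an unadjusted p under 0.05) and mesothelial markers 1.11 (2 tested, 0 called, 2 at an unadjusted p under 0.05).

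Basal cell markers were too scarce to test by limma, with Krt5 at 0 in 3 libraries and 1 read in knockout 2, and Krt14 at 0 reads in both wild-type libraries and 2 in each knockout library. The 4 basal markers summed to 0.238, 0.136, 0.336 and 0.549 FPKM in wild type 1, wild type 2, knockout 1 and knockout 2. Only 1 of them had enough reads for limma-voom, with a log2 fold change of 0.69, and it was not called. Leukocyte markers had a median of 0.58 (6 tested, 1 called, S100a8). Erythroid markers had a median of 1.42 (5 tested, 0 called, 5 at an unadjusted p under 0.05) and summed to 247, 490, 1194 and 1093 FPKM. Male germ cell genes bear on the flagellar members. Of the 12 listed, 9 were above 0 in at least 1 library. Their levels summed to 1.10, 0.430, 9.32 and 9.38 FPKM in wild type 1, wild type 2, knockout 1 and knockout 2. Groups overlapped for the 8 that were above 0 but below the FPKM filter. Tnp1, Acrv1 and Odf1 were at 0 in all 4 libraries. Prm1, on 4, 0, 74 and 67 reads, was the only one of the 12 tested by limma, which called it higher in knockout. By limma-voom 2 of the 12 were tested and 0 called. The part of these cell types in the levels of the motile cilium genes was not tested.

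**Figure D5:**
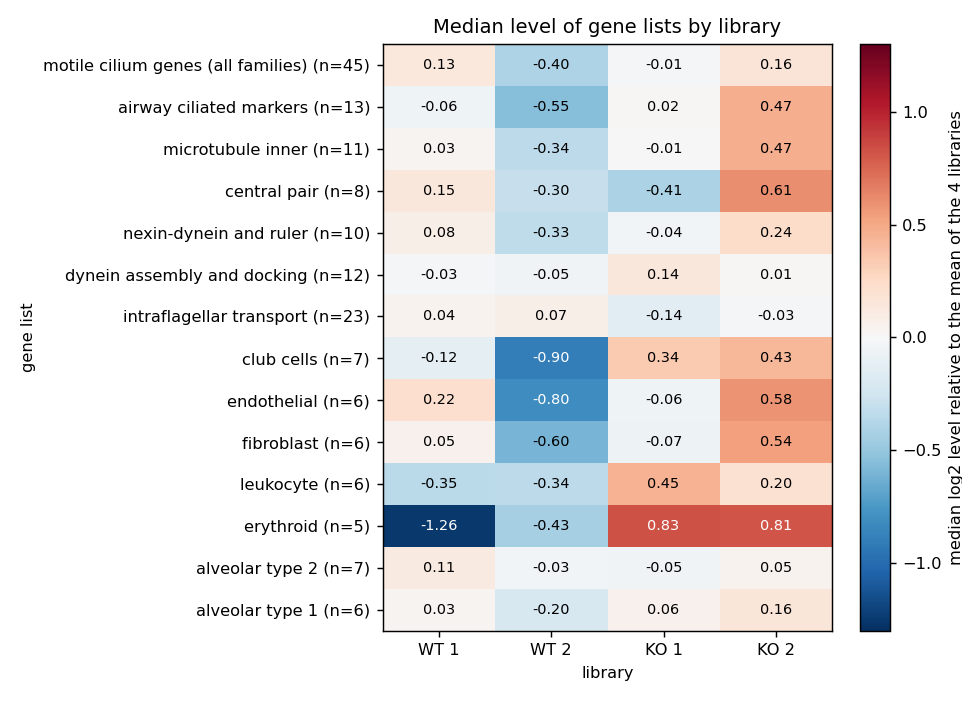
Median log2 level of each gene list in each library, relative to each gene's mean over the 4 libraries (colour and printed value), with the number of genes that had enough reads. The motile cilium genes, the airway ciliated markers and the club, endothelial and fibroblast markers all have their lowest value in wild type 2, at -0.40 to -0.90, whereas alveolar type 2 markers lie between -0.05 and 0.11.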

How the data were processed

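RNA of 4 samples, 2 per genotype, was sequenced. The authors deposited FPKM per gene; per the submitters' processing notes, mm10, TopHat2 and DESeq2 are listed, with neither roles nor versions stated. How reads were counted, whether strand was used and what became of shared reads is not given in the sources used here. Symbols and coordinates (from 1) are from GENCODE for GRCm38, the same assembly as mm10, and matched 34490 of 35275 identifiers.

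The deposited FPKM values fit whole reads, a library constant and a whole-number gene length within 0.0002 reads for 21581 of 21601 genes above 0 (99.907% of genes). The length was the rounded mean length of the gene's transcripts for 12161, another annotated length for 1068 and the smallest that fitted for 8352, whose reads could be undercounted.

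Knockout was compared with wild type on log2(FPKM + 1) by limma (version 3.58.1, R 4.3.3). The variance prior followed intensity, p-values were adjusted by Benjamini-Hochberg over the 13147 genes that reached 1 FPKM in 2 libraries or more, and calls needed an adjusted p below 0.05. Residual degrees of freedom were 2 and those of the prior 4.12. Limma-voom ran on recovered reads of genes that reached 10 reads in 2 libraries or more, also after centring each library on the median of all genes of the same length class; both were added after the data were seen. Other alternatives were the normalization, the trend, the filter, the pseudocount, the replicate block and each library left out. Both fits were tested on simulated data.

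The motile cilium genes, the lists, the tests and the rule for named genes were chosen with earlier results of these data known. The rule took Foxj1, up to 6 genes per family by mean FPKM, every called gene, up to 8 non-overlapping tested genes per direction by fold change, the 4 smallest fold changes, genes at 0 in 2 or more libraries and, from the other lists, the 3 or 4 most abundant and every called gene. A comparison of protein sequences was planned and not analysed here.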

Additional observations from a re-analysis of the deposited data

How the results depend on the processing

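No motile cilium gene was called under any of the 13 settings run. The smallest adjusted p was 0.0568 by limma with the crossed replicate block, where 7 of 19 had an unadjusted p under 0.05. The share of all genes at that unadjusted p was not computed for this block, so the count is not read as a result about the members. Among the other settings that kept every library the smallest adjusted p was 0.211, by limma without the variance trend. The median log2 fold change of those tested kept its sign, from 0.036 without a filter to 0.200 with a pseudocount of 0.1, and moved by less than the spread between replicates (0.183). Over all genes, 15 were called, against 1 without a filter, 7 by limma-voom on recovered reads and 7 with length centring. Leaving out a library gave 10 to 252 calls, with 252 without knockout 1 and 55 without knockout 2. With the replicate number as a block 69 were called. Same-numbered libraries deviated in opposite directions (correlation -0.306 over 13147 genes), so the numbers do not pair the samples, and a crossed block, added after the data were seen, called 848. Of 184 alternative values for 15 named and tested genes, 179 kept their direction and their side of the threshold. Those that turned were Cfap45 without wild type 1 (0.020) and without knockout 1 (0.226), in a range from -0.414 over the libraries left out, Cfap43 without wild type 2 (-0.098) and without knockout 2 (-0.090), in a range up to 0.171, and Cfap298 with length centring (-0.048), and the cause was not tested. Leaving out 1 library moved 11 of the 15 by over 1.5 times or turned their sign, and 4 by less. Of the 59 genes, 45 had enough reads for limma-voom, and no Dnah or Tekt gene reached the FPKM filter.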
